A study of Mus musculus with 4 samples.

Results

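Integrins are adhesion receptors made of 1 alpha and 1 beta chain. The 10 chains described here were Itga4, Itga6, Itga7, Itgae, Itgal, Itgav, Itgb1, Itgb2, Itgb3 and Itgb7, found by their gene symbols among 31748 rows of the deposited count tables, in which all 10 were present and passed the low-count filter. They were chosen by family after the levels and fold changes of KO against WT libraries in these same tables were known. Their differences between these groups are therefore given as a description, and calls of them in tests across all genes are not read as evidence. The study labelled its libraries as splenic CD4+ T cells of TEa receptor-transgenic mice, either deficient in Mthfd2 (TEaMthfd2 KO, 2 libraries) or wild type (TEaWT, 2 libraries). Mice of both genotypes were 8 weeks old, and their T cells were isolated by positive magnetic selection. All cultures lasted 3 days and contained mitomycin-treated antigen-presenting cells from spleens of F1 (BALB/c x C57BL/6) mice of the same age. The labels give no Mthfd2 allele or driver, do not say how much of the gene was removed, and do not say whether the replicates were separate mice or cultures, so the spread between libraries may be technical.

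Libraries held between 14191401 and 15955863 counts. Along the first principal component (69.0% of the variance), the KO libraries lay at 43.8 and 40.9, while WT replicate 1 lay at -65.1 and WT replicate 2 at -19.6. Values without WT replicate 1 are therefore given for most of the chains and for some other genes. Mthfd2, an enzyme of mitochondrial folate metabolism, stood at 222 and 252 CPM (counts scaled to a common library total) in KO libraries and at 280 CPM in each WT library, and a whole-gene count cannot show the loss of some exons. Cd8a stood at 3.16 and 3.20 times the level of Cd4 (CPM) in KO libraries and at 4.00 and 3.10 times in WT libraries, against the label of CD4+ cells. The summed level of 8 T cell markers was 2230 and 2270 CPM in KO libraries, against 1540 and 1700 CPM in WT libraries. Of the 8, 3 (Cd3d, Cd3e and Cd3g) rose at an edgeR adjusted p under 0.05, and 4 were higher at an unadjusted p under 0.05. Over all genes tested, 2.39% were called higher and 1.56% lower by the adjusted p, and 12.8% and 12.7% passed the unadjusted one. The summed level of 12 B cell markers was 1190 and 1210 CPM in KO libraries, against 2920 and 1860 CPM in WT libraries. Of the 12, 6 fell at an edgeR adjusted p under 0.05. All 12 were lower at an unadjusted p under 0.05, as were 12.7% of all genes tested. Of 18 myeloid markers, summing to 44.8 and 35.1 CPM in KO libraries and 218 and 95.2 CPM in WT libraries, 8 passed the filter and 2 fell. Of 7 erythroid markers, summing to 7 and 3.44 CPM in KO libraries and 128 and 32.4 CPM in WT libraries, 4 passed and 2 fell. At an unadjusted p under 0.05, 4 myeloid and 4 erythroid markers were lower. None of the markers of CD4 T cells (249 and 261 CPM in KO, 224 and 213 CPM in WT libraries), CD8 T cells (1240 and 1310 CPM in KO, 964 and 976 CPM in WT libraries) or NK cells (136 and 126 CPM in KO, 147 and 104 CPM in WT libraries) was called by edgeR, while an unadjusted p under 0.05 gave 1 lower for CD4, 2 higher for CD8 and 1 lower for NK cells. Markers of fibroblasts and endothelium summed to at most 3.91 CPM in a library, and 0 of 10 passed the filter. Myeloid and B cells also express Itgb2, Itgal, Itga4 and Itgav, and their part in the values of these chains was not tested. In bulk RNA, fewer cells of a type and less RNA per cell cannot be told apart.

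The beta chain largely sets how an integrin couples to the cytoskeleton, and the pair of chains sets its ligand. Integrins of resting T cells are held in a bent, weakly binding form, and signals from the T cell receptor and chemokine receptors act through the GTPase RAP1, talin and kindlin-3 to open them. In T cells the pair of Itgal and Itgb2 (LFA-1) stabilises contacts with antigen-presenting cells, the pairs of Itga4 serve entry into tissues, and Itgae with Itgb7 serves retention in epithelia.

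Promoter windows are shown for Itga4 and its alternative partners Itgb7 and Itgb1, because the balance of these chains differed between the groups, and for Itga2, the chain outside the described 10 that passed the test below. Each runs 5′ to 3′ on the gene's strand, from 250 bases before to 50 after the annotated start (RefSeq, GRCm38.p6). The windows are chr15:102231886-102232185 (minus strand) for Itgb7, chr8:128685404-128685703 (plus strand) for Itgb1, chr2:79255176-79255475 (plus strand) for Itga4 and chr13:114932051-114932350 (minus strand) for Itga2. Of the 10 chains, 4 (Itga4, Itgav, Itgb1 and Itgb7) had such a window in the table used. Capitals mark matches, on either strand, to ACGTG or GCGTG (cores of the hypoxia response element), GGGCGG (the GC box), TGTGGT (a RUNX core) and TATAAA, and CACGTG (the E box, which contains ACGTG) was searched as well.
Itgb7: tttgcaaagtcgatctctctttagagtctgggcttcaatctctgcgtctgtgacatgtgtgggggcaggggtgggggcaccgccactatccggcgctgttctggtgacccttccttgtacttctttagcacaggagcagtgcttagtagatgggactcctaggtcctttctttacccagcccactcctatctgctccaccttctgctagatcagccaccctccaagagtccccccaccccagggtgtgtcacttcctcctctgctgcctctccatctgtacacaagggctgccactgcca
Itgb1: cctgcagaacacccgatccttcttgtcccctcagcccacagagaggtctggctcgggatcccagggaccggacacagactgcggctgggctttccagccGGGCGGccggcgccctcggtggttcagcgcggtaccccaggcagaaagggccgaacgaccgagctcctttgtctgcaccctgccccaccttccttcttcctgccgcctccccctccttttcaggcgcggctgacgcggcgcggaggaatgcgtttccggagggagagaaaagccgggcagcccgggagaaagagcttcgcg
Itga4: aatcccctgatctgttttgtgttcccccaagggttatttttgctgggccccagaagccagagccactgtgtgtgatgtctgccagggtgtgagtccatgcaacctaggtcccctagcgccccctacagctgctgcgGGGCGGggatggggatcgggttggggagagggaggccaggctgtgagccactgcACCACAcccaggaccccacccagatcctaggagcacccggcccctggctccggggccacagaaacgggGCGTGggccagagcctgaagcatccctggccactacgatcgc
Itga2: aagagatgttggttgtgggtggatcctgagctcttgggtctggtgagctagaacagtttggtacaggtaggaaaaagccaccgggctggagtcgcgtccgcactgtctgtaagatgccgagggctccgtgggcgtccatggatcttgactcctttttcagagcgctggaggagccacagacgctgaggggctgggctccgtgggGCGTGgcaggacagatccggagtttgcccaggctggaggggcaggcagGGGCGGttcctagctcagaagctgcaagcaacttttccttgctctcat
The Itgb7 window held 0 matches to the 6 motifs. That of Itgb1 held 1 GGGCGG, at position -151 from the start. The Itga4 window held 1 match each to GGGCGG (-114), TGTGGT (-60, on the other strand, so that it reads ACCACA) and GCGTG (8). The Itga2 window held 1 GCGTG (-46) and 1 GGGCGG (2). Of 32851 windows in the table, 35.7% held GGGCGG, 32.4% GCGTG, 19.6% ACGTG, 16.8% TGTGGT, 13.6% TATAAA and 7.15% CACGTG, so such matches are common.

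Among the 10 chains, the 4 with the largest log2 fold changes were Itga7, Itgb3, Itgb7 and Itga6, all higher in KO libraries. These 4 were called higher and 0 lower in edgeR's quasi-likelihood test across all genes (Benjamini-Hochberg adjusted p under 0.05), where 3.95% of 12752 genes were called, 2.39% higher and 1.56% lower. Limma-voom likewise called 4 higher and 0 lower, where it called 4.65% of all genes (2.95% higher and 1.7% lower). DESeq2 called 5 higher (Itgal in addition) and 0 lower, where it called 13.4% of all genes (7.02% higher and 6.39% lower). An unadjusted p under 0.05 in edgeR gave 6 higher and 0 lower, and 25.5% of all genes passed that threshold, 12.8% higher and 12.7% lower. Because the chains were chosen with this contrast known, nothing is read from these counts. In 7 chains both KO libraries lay above both WT libraries, and in 1, Itgav, both lay below. The shares over all genes tested were 29.8% above and 30.1% below. The median log2 fold change, KO over WT, was 0.55 for the 10 chains and -0.0026 for all genes tested. In fits that left out either KO library the edgeR test called 0 of 10, with 0 genes called in all, and without WT replicate 1 it called Itga7, Itgb3 and Itgb7. Without WT replicate 2 the log2 fold change of Itgav was -0.90. Fits without a library differed widely in how many of all genes they called, so their calls cannot be set against the shares above.

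**Figure D1:**
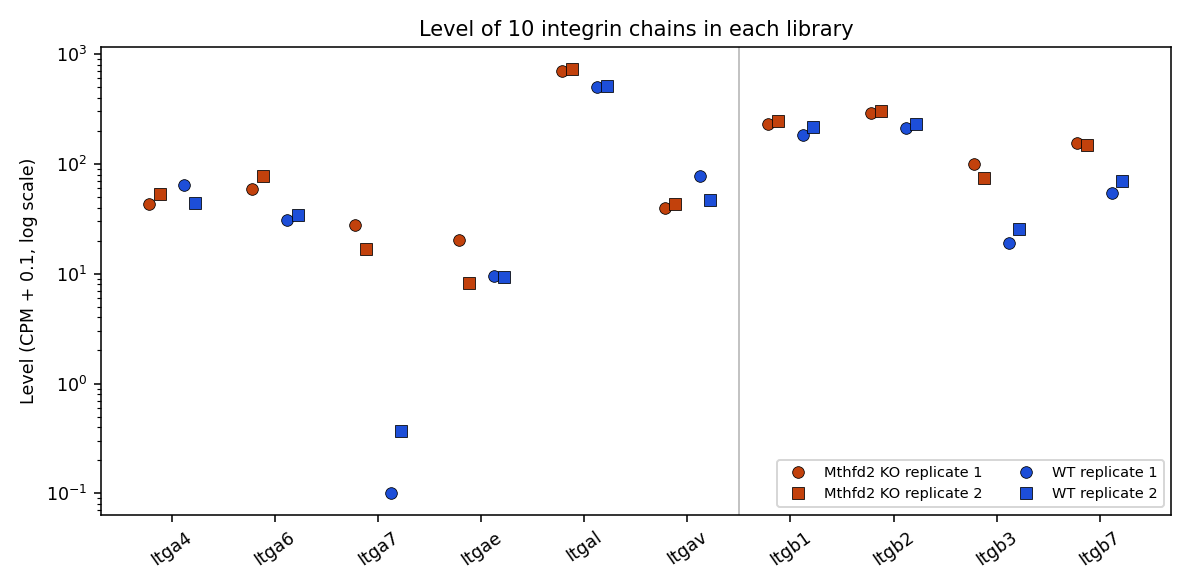
Level of the 10 chains (CPM + 0.1, log scale) in each library, alpha chains left and beta chains right of the grey line; circles are replicate 1 and squares replicate 2 of Mthfd2 KO (orange) and WT (blue). Itga7 is near the floor in WT libraries, and the orange and blue points of Itgb3, Itgb7 and Itga6 are apart.

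LFA-1 is the chief integrin of T cells and binds ICAM proteins on other cells. Its alpha chain Itgal (chromosome 7, 127296260 to 127335138, GRCm38, plus strand, ENSMUSG00000030830.18) stood at 707 and 737 CPM in KO libraries and at 497 and 515 CPM in WT libraries. Its partner Itgb2, the beta chain shared by the leukocyte integrins (chromosome 10, 77530252 to 77565708, plus strand, ENSMUSG00000000290.13), stood at 293 and 305 CPM in KO libraries and at 212 and 233 CPM in WT libraries. Both chains were higher in both KO libraries, and the groups did not overlap. The log2 fold changes were 0.51 ± 0.14 (SE, n = 2 libraries each) for Itgal and 0.42 ± 0.14 for Itgb2. Without WT replicate 1 they were 0.49 and 0.36. Set against the summed T cell markers, which were also higher in KO libraries, both chains lay close to even. The 8 markers did not move alike. Cd3g, Cd3d, Cd3e and Lck had log2 fold changes of 1.26, 0.86, 0.81 and 0.60. Those of Cd247, Cd2, Zap70 and Cd5 were 0.30, 0.15, 0.14 and -0.09. The result on this scale therefore depends on which markers are summed. Per 1000 CPM of these markers, Itgal had 317 and 325 CPM in KO libraries and 322 and 302 CPM in WT libraries. On the same scale Itgb2 had 132 and 134 CPM in KO libraries, against 138 and 137 CPM in WT libraries. On that scale the Itgal groups overlapped and Itgb2 lay slightly lower in KO libraries, with a log2 ratio of -0.04.

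The alpha chain Itga4 pairs with Itgb1 in VLA-4, which binds VCAM-1 and fibronectin, and with Itgb7 in LPAM-1, which binds MAdCAM-1 of gut vessels. Itga4 (chromosome 2, 79255426 to 79333123, plus strand, ENSMUSG00000027009.18) stood at 43.1 and 52.7 CPM in KO libraries, against 64.4 and 44.1 CPM in WT libraries. Its groups overlapped, the log2 fold change was -0.18 ± 0.22, and without WT replicate 1 it was 0.12. Per 1000 CPM of T cell markers it had 19.3 and 23.3 CPM in KO libraries, against 41.8 and 25.9 CPM in WT libraries, so on that scale it lay lower in KO libraries without overlap. On the opposite strand, exons of Cerkl cover 8.04% of the exon bases of Itga4, and Cerkl had at most 38 counts in a library.

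Of the partners of Itga4, Itgb7 was clearly higher in KO libraries and Itgb1 differed little. Itgb7 (chromosome 15, 102215995 to 102231944, minus strand, ENSMUSG00000001281.10) stood at 154 and 148 CPM in KO libraries and at 54.4 and 70.4 CPM in WT libraries. Both KO libraries lay well above both WT libraries, with a log2 fold change of 1.27 ± 0.18, and 1.10 without WT replicate 1. Per 1000 CPM of T cell markers it had 69.0 and 65.2 CPM in KO libraries, against 35.3 and 41.3 CPM in WT libraries, so it was also higher on that scale. Itgb1, the beta chain with the most partners (chromosome 8, 128685654 to 128733200, plus strand, ENSMUSG00000025809.15), stood at 229 and 247 CPM in KO libraries and at 184 and 218 CPM in WT libraries. Its ranges did not overlap, but the log2 fold change was 0.24 ± 0.15 with all libraries and 0.13 without WT replicate 1. Per T cell marker it turned to -0.22.

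Itgae, the alpha chain CD103, pairs with Itgb7 and binds E-cadherin of epithelia. It is typical of tissue-resident CD8+ T cells, some regulatory T cells and some dendritic cells. Itgae (chromosome 11, 73090583 to 73147446, plus strand, ENSMUSG00000005947.11) stood at 20.0 and 8.17 CPM in KO libraries and at 9.47 and 9.19 CPM in WT libraries. KO replicate 1 alone was high and KO replicate 2 lay below both WT libraries. The log2 fold change of 0.59 ± 0.42 therefore rests on KO replicate 1, and without that library it was -0.19. Itgb7 was thus higher in both KO libraries while both of its alpha chains, Itga4 and Itgae, had overlapping groups in CPM.

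Itga6 and Itga7 pair with Itgb1 to form laminin receptors. Itga6 (chromosome 2, 71745616 to 71858416, plus strand, ENSMUSG00000027111.15), which is also found on naive and memory T cells, stood at 59.1 and 77.3 CPM in KO libraries and at 31.0 and 34.1 CPM in WT libraries. The groups did not overlap, and the log2 fold change was 1.07 ± 0.19. Without WT replicate 1 it was 1.00. Per 1000 CPM of T cell markers Itga6 had 26.5 and 34.1 CPM in KO libraries, against 20.1 and 20.0 CPM in WT libraries, a log2 ratio of 0.60.

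Itga7, the laminin receptor chain known mainly from skeletal muscle, had the largest fold change of the 10. Itga7 (chromosome 10, 128933818 to 128958282, plus strand, ENSMUSG00000025348.9; 25 exons in its longest transcript) had 394 and 231 counts in KO libraries, against 0 and 4 counts in WT libraries. In CPM these were 27.9 and 16.6 in KO libraries and 0 and 0.27 in WT libraries, so the gene was almost silent in WT. The ratio of the pooled counts was 173 (95% exact counting interval 67.4 to 638), an interval that covers counting error only. The fitted log2 fold change was 7.34 ± 0.73 with all libraries and ranged between 6.32 and 11.37 when a library was left out, and it depends on the prior count of the fit. Mettl7b, whose exons share 9 bases with those of Itga7 on the opposite strand, had at most 1 count in a library.

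Itgav pairs with several beta chains, among them Itgb3 in the vitronectin receptor and Itgb8 in a pair that activates latent TGF-beta. Itgav (chromosome 2, 83724397 to 83806916, plus strand, ENSMUSG00000027087.11) stood at 39.6 and 43.0 CPM in KO libraries and at 77.5 and 46.9 CPM in WT libraries. Both KO libraries lay below, most of the gap came from WT replicate 1, and the log2 fold change was -0.59 ± 0.25 with all libraries, -0.18 without that library and -0.90 without WT replicate 2. Per 1000 CPM of T cell markers Itgav had 17.8 and 19.0 CPM in KO libraries, against 50.2 and 27.5 CPM in WT libraries. Itgb3 (chromosome 11, 104608000 to 104670476, plus strand, ENSMUSG00000020689.4) was higher in KO libraries, at 98.7 and 73.7 CPM in KO libraries and at 18.9 and 25.6 CPM in WT libraries. Its log2 fold change was 1.95 ± 0.23, the second in size among the 10, and 1.75 without WT replicate 1. Per 1000 CPM of T cell markers it had 44.3 and 32.5 CPM in KO libraries, against 12.3 and 15.0 CPM in WT libraries. Itgb3 is also a platelet gene, through its pair with Itga2b. Itga2b stood at 2.12 and 1.79 CPM in KO libraries and at 2.26 and 1.89 CPM in WT libraries, and the 11 platelet and megakaryocyte markers together at 3.46 and 2.08 CPM in KO libraries and at 3.67 and 3.24 CPM in WT libraries. The platelet genes Ppbp, Gp9, Gp1bb, Gp6 and Clec1b had 0 counts in every library. Others of the list had some: Gp1ba had 6 and 2 counts in KO and 13 in each WT library, and Pf4 had 10 and 2 in KO and 6 and 1 in WT libraries. The part of platelets in the Itgb3 values was not tested.

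**Figure D2:**
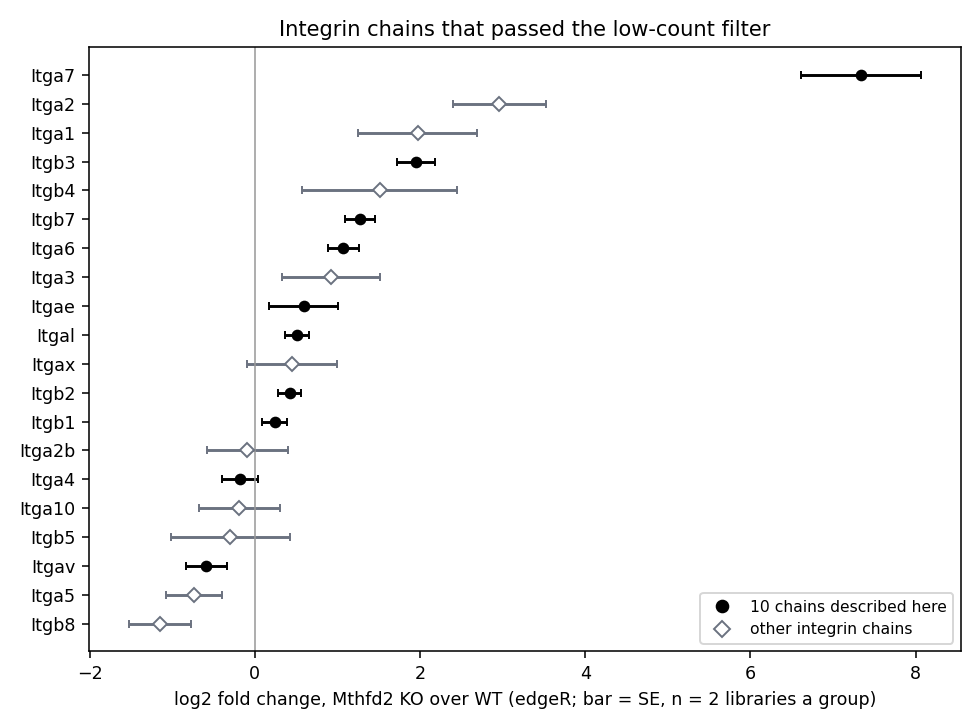
Log2 fold change, Mthfd2 KO over WT, of the 20 integrin chains that passed the low-count filter (edgeR, bars are SE, n = 2 libraries each); black circles are the 10 chains described here and open diamonds other chains. Itga7 lies far right at 7.34, followed by Itga2 at 2.96, and Itgb8 is lowest at -1.15.

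Levels of different chains were compared per length, as RPKM (CPM divided by the kilobases of annotated exon). In KO libraries the order was Itgal, Itgb2, Itgb1, Itgb7, Itgb3, Itga6, Itgav, Itga4, Itgae and Itga7. The first 4 of these were well above the rest. Itgal stood at 108 and 112 RPKM, Itgb2 at 96.1 and 99.8, Itgb1 at 56.1 and 60.6 and Itgb7 at 55.5 and 53.3 RPKM. The neighbours Itgav and Itga4, Itga4 and Itgae, and Itgae and Itga7 did not differ beyond their spread in KO libraries. The order in WT libraries was Itgal, Itgb2, Itgb1, Itgb7, Itgav, Itga4, Itgb3, Itga6, Itgae and Itga7, and there Itgal with Itgb2, and each neighbouring pair from Itgav to Itga6, overlapped. Itgb3 moved to place 5 in KO libraries, against place 7 in WT libraries, at 16.7 and 12.5 RPKM in KO and 3.21 and 4.34 RPKM in WT libraries. With the longest transcript in place of all exons, 42 of 45 pairs of chains kept their order in KO libraries and 43 of 45 in WT libraries. Itgal and Itgb2 then did not overlap in WT libraries, at 95.2 and 98.6 RPKM against 71.5 and 78.6 RPKM.

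The 10 chains held 98.1% and 98.9% of the summed RPKM of 26 integrin chains in KO libraries, and 98.1% and 97.8% in WT libraries. Their summed RPKM was 353 and 359 in KO libraries, against 231 and 251 in WT libraries. In CPM they summed to 1670 and 1710 in KO libraries and 1150 and 1200 in WT libraries, a larger share of counts in both KO libraries. The summed T cell markers were also higher, at 2230 and 2270 CPM in KO libraries and 1540 and 1700 CPM in WT libraries. The part of T cell content in the integrin sum was not tested. Over all 26 chains, the 18 alpha chains summed to 134 and 136 RPKM in KO libraries and 96.5 and 95.9 RPKM in WT libraries, and the 8 beta chains to 226 and 227 RPKM in KO libraries and 139 and 161 RPKM in WT libraries. Beta chains thus outweighed alpha chains in every library. Itgal ranked above 96.6% of 12449 tested genes by mean RPKM in KO libraries and above 95% in WT libraries. Itgb7 ranked above 92.4% in KO and 79.2% in WT libraries, and Itgb3 above 69.5% in KO and 35.3% in WT libraries.

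**Figure D3:**
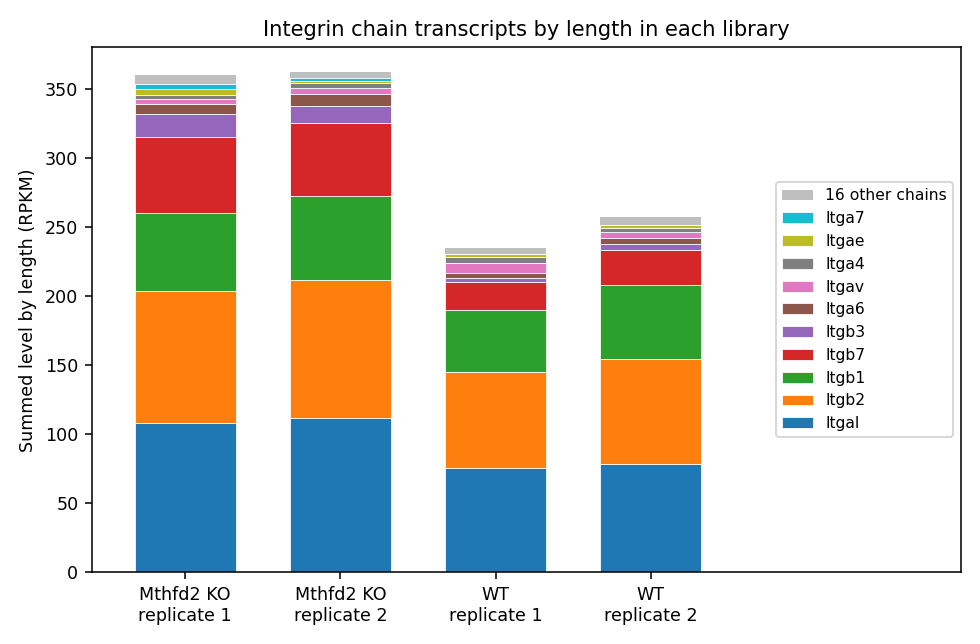
Summed level by length (RPKM) of the integrin chains in each library, stacked by chain, with 16 other chains in grey. The KO bars reach about the same height, above both WT bars, and the bands of Itgb7 (red) and Itgb3 (purple) are wider in KO libraries.

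Within each library, the ratio of partner chains shows which pairs kept their balance. Itgal stood at 1.12 times Itgb2 (RPKM) in each KO library and at 1.09 and 1.02 times in WT libraries, close to even in all 4. By the longest transcript Itgal was further above Itgb2, at 135 and 141 against 98.8 and 103 RPKM in KO libraries. In WT libraries these were 95.2 and 98.6 against 71.5 and 78.6 RPKM. The size of each ratio thus depends on the length used, which scales it alike in every library. Itgb7 stood at 0.989 and 0.879 times Itgb1 in KO libraries, against 0.435 and 0.475 times in WT libraries. The beta chains that compete for Itga4 were thus near parity in KO libraries and weighted to Itgb1 in WT libraries. Itga4 itself stood at 0.0555 and 0.0707 times Itgb7 in KO libraries, against 0.235 and 0.124 times in WT libraries. Itga6, which also uses Itgb1, stood at 2.13 and 2.27 times Itga4 in KO libraries, against 0.746 and 1.20 times in WT libraries. Itgav stood at 0.220 and 0.321 times Itgb3 in KO libraries, against 2.25 and 1.01 times in WT libraries, so the beta chain was the more abundant one in KO libraries and not in WT libraries. These ratios use the values that chose the chains and carry no test, and transcripts do not give the amount of paired protein at the surface.

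**Figure D4:**
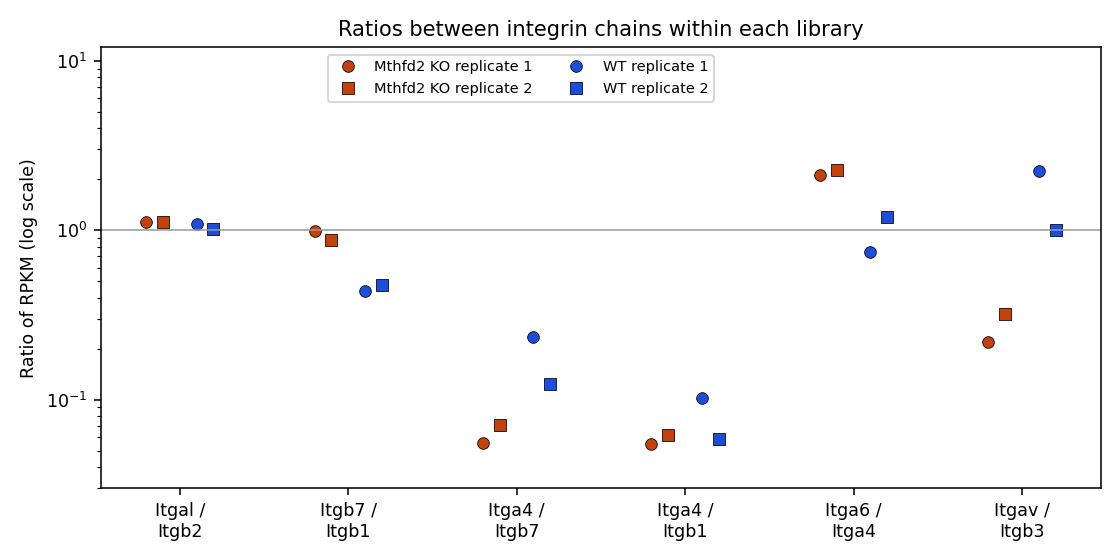
Ratio of RPKM between chains within each library (log scale), Mthfd2 KO in orange left of WT in blue, circles replicate 1 and squares replicate 2. The ratio of Itgal to Itgb2 is near 1 in all libraries, while those of Itgb7 to Itgb1, Itga4 to Itgb7, Itga6 to Itga4 and Itgav to Itgb3 differ without overlap.

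Of the 16 other integrin chains, 10 passed the filter. Of these 10, Itga2 rose, and 0 fell in the edgeR test, in which 2.39% of all genes tested were called higher. DESeq2, which called 7.02% of all genes higher, called the same single chain. Limma-voom, which called 2.95% of all genes higher, called 0. At an unadjusted p under 0.05 the edgeR test gave 2 higher and 1 lower, against 12.8% and 12.7% of all genes tested. Itga2, which forms the collagen receptor with Itgb1 (chromosome 13, 114833081 to 114932100, minus strand), had 48 and 45 counts in KO libraries and 7 and 6 counts in WT libraries. Its log2 fold change was 2.96 ± 0.56 (edgeR adjusted p = 0.0438), from levels of 3.39 and 3.23 CPM in KO libraries and 0.428 and 0.406 CPM in WT libraries. Leaving out WT replicate 1 (adjusted p = 0.0761) or using limma-voom (adjusted p = 0.0507) ended this call. Itga1, the other collagen-binding alpha chain of lymphocytes, lies 20995 bases from Itga2 on the same strand. It had 16 and 13 counts in KO libraries and 4 in each WT library (log2 fold change 1.97 ± 0.72, edgeR adjusted p = 0.154).

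Itgb8, which pairs with Itgav alone, stood at 2.55 and 2.94 CPM in KO libraries and at 6.90 and 5.27 CPM in WT libraries (log2 fold change -1.15 ± 0.38, edgeR adjusted p = 0.123). Itga5, the fibronectin receptor chain, stood at 5.37 and 3.80 CPM in KO libraries and at 7.15 and 8.18 CPM in WT libraries (-0.74 ± 0.34, edgeR adjusted p = 0.227). Neither passed the test, though in both chains the groups did not overlap, as in 59.9% of all genes tested. Itga3, a laminin receptor chain, varied most within KO, at 13.7 and 3.73 CPM, against 4.03 and 5.21 CPM in WT libraries. Itga10, Itgax, Itga2b, Itgb4 and Itgb5 had log2 fold changes between -0.30 and 1.51 and were not called, and a same-strand gene model shares 33.5% of the exon bases of Itga10. The remaining 6 chains had at most 10 counts in a library, among them Itgam, the myeloid chain of Mac-1, with at most 4, and Itga8 with 0 in all. The same-strand gene model Gm49368 shares 68.7% of the exon bases of Itgam, so its count is uncertain.

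The machinery that opens integrins and links them to actin contained 45 listed genes, of which 40 passed the filter. In KO libraries 4 of the 40 rose and 0 fell in edgeR, which called 2.39% of all genes tested higher and 1.56% lower. An unadjusted p under 0.05 gave 15 higher and 1 lower, against 12.8% and 12.7% of all genes tested. DESeq2 called 11 higher and 0 lower (7.02% and 6.39% of all genes), and limma-voom 4 higher and 0 lower (2.95% and 1.7%). The median log2 fold change was 0.29, against -0.0026 over all genes tested and 0.45 for the T cell markers in the same libraries. The 4 genes were Rasgrp2, Fyb, Skap1 and Arhgap45, and they were also called without WT replicate 1, while Skap1 lost its call with upper quartile factors (adjusted p = 0.0512). In the fits without either KO library 0 genes of any list were called. Rasgrp2, an exchange factor that loads RAP1 with GTP, stood at 94.8 and 83.9 CPM in KO libraries and at 20.9 and 26.6 CPM in WT libraries (log2 fold change 1.91 ± 0.19, edgeR adjusted p = 0.0199). Fyb, the adaptor ADAP, stood at 149 and 144 CPM in KO libraries and at 50.6 and 73.4 CPM in WT libraries (1.24 ± 0.21, edgeR adjusted p = 0.0400). Its binding partner Skap1, with which it couples the T cell receptor to LFA-1, stood at 107 and 100 CPM in KO libraries and at 35.9 and 54.6 CPM in WT libraries (1.19 ± 0.23, edgeR adjusted p = 0.0438). Arhgap45, a GTPase-activating protein, rose by 0.99 ± 0.14 (edgeR adjusted p = 0.0326). T cells express Fyb and Skap1 strongly. In the same libraries the T cell markers Cd3d, Cd3e and Cd3g rose by 0.86, 0.81 and 1.26. The other 5 markers were not called, with Lck at 0.60, Cd247 at 0.30, Cd2 at 0.15, Zap70 at 0.14 and Cd5 at -0.09. The part of T cell content in the rise of Fyb and Skap1 was not tested.

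None of the core linkers was called by edgeR. Tln1 (talin-1) had a log2 fold change of 0.45 ± 0.16 (edgeR adjusted p = 0.136), Fermt3 (kindlin-3) of 0.37 ± 0.19 (0.277), Rap1a of 0.28 ± 0.15 (0.269) and Rap1b of 0.00 ± 0.14 (0.996). Vcl (vinculin) stood at 20.6 and 18.4 CPM in KO libraries and at 5.38 and 9.46 CPM in WT libraries (1.40 ± 0.32, edgeR adjusted p = 0.0600), and DESeq2 called it (adjusted p = 0.00362). Ptk2, the focal adhesion kinase, stood at 6.79 and 6.88 CPM in KO libraries and at 14.8 and 10.8 CPM in WT libraries (-0.91 ± 0.28, adjusted p = 0.114).

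Among 35 listed ligands and matrix genes, 16 passed the filter, and Icam1 was the 1 that fell in edgeR, with 0 higher. Over all genes tested, 2.39% were called higher and 1.56% lower. An unadjusted p under 0.05 gave 1 higher and 3 lower, against 12.8% and 12.7% of all genes tested. DESeq2 called 1 higher and 1 lower (7.02% and 6.39% of all genes), and limma-voom 0 higher and 1 lower (2.95% and 1.7%). The median log2 fold change was -0.10. Icam1, the main ligand of LFA-1 and induced by inflammatory signals in many cells, stood at 67.9 and 65 CPM in KO libraries and at 187 and 128 CPM in WT libraries (-1.25 ± 0.21, edgeR adjusted p = 0.0400). Without WT replicate 1 its log2 fold change was -0.94 (adjusted p = 0.0273). B cells also express Icam1, the median of the B cell markers was -1.33 in the same libraries, and the part of these cells in the fall was not tested. Icam2, a constitutive ligand of LFA-1, had overlapping groups at 19.8 and 28.3 CPM in KO libraries and 42.2 and 28.1 CPM in WT libraries. Of the ligands of the pairs of Itga4 and Itgae, Vcam1 had at most 9 counts in a library, Madcam1 at most 4, Cdh1 at most 6 and Fn1 at most 12. Among laminin chains, ligands of the pairs of Itga6 and Itga7, Lamc1 stood at 65.8 and 43.9 CPM in KO libraries and at 36.0 and 43.9 CPM in WT libraries (0.46 ± 0.23, edgeR adjusted p = 0.265). Mfge8, a ligand of the pair of Itgav and Itgb3, stood at 16 and 12.9 CPM in KO libraries and at 3.85 and 6.29 CPM in WT libraries (1.51 ± 0.33, edgeR adjusted p = 0.0554), and DESeq2 called it (adjusted p = 0.0031). Tgfb1, whose latent form the pairs of Itgav bind, had a log2 fold change of -0.03 ± 0.14 (edgeR adjusted p = 0.912).

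Of 19 surface partners of integrins, 17 passed the filter, and in edgeR 1 rose (Bsg) and 0 fell, against 2.39% and 1.56% of all genes tested. An unadjusted p under 0.05 gave 6 higher and 5 lower, against 12.8% and 12.7%. Both DESeq2 and limma-voom called 1 higher and 0 lower. Of all genes, DESeq2 called 7.02% higher and 6.39% lower, and limma-voom 2.95% and 1.7%. Bsg, basigin, which associates with Itgb1 and with the lactate transporters, stood at 700 and 600 CPM in KO libraries and at 304 and 353 CPM in WT libraries (0.98 ± 0.16, edgeR adjusted p = 0.0397; 0.0537 without WT replicate 1). Slc3a2, the CD98 heavy chain that binds beta chain tails and carries amino acid transporters, stood at 215 and 220 CPM in KO libraries and at 369 and 264 CPM in WT libraries (-0.54 ± 0.19, adjusted p = 0.138). The median of this list was 0.02. In processing and trafficking of integrins, 20 of 23 listed genes passed the filter and 0 were called by edgeR in either direction (unadjusted p under 0.05 gave 1 higher and 1 lower). DESeq2 called 0 higher and 1 lower there, limma-voom 0 in either direction, and the median was -0.09.

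Receptors that work beside integrins in homing gave 4 rises and 0 falls among 23 genes tested in edgeR. Over all genes tested, 2.39% were called higher and 1.56% lower. An unadjusted p under 0.05 gave 8 higher and 4 lower, against 12.8% and 12.7% of all genes tested. DESeq2 called 8 higher and 1 lower (7.02% and 6.39% of all genes), and limma-voom 4 higher and 0 lower (2.95% and 1.7%). The median was 0.34. S1pr4, a receptor for sphingosine-1-phosphate, stood at 99.3 and 103 CPM in KO libraries and at 41.7 and 35.4 CPM in WT libraries (1.39 ± 0.17, edgeR adjusted p = 0.0241). The chemokine receptor Cxcr3 (1.26 ± 0.21) and the adhesion receptor Cd96 (0.99 ± 0.17) rose with the same adjusted p of 0.0400 (edgeR). The 4 genes called were also called without WT replicate 1, when the list had 7 higher and 1 lower. The gut-homing receptor Ccr9, which works with the pair of Itga4 and Itgb7, stood at 0.566 and 0.287 CPM in KO libraries and at 3.18 and 1.08 CPM in WT libraries (-2.30 ± 0.79, adjusted p = 0.138). Cd69, an early activation marker, stood at 52.5 and 47.1 CPM in KO libraries and at 301 and 111 CPM in WT libraries (-2.05 ± 0.43, adjusted p = 0.0510).

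**Figure D5:**
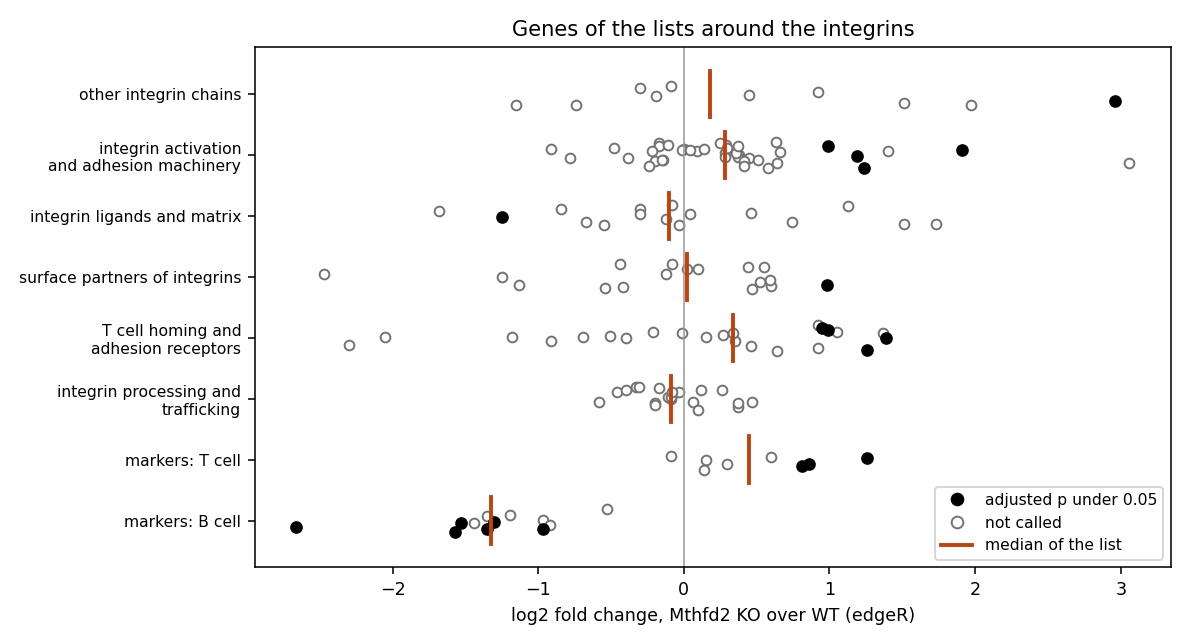
Log2 fold change, Mthfd2 KO over WT, of the genes of 6 lists around the integrins and of the T cell and B cell markers that passed the low-count filter; filled points are called (edgeR, adjusted p under 0.05), open points are not, and orange bars are list medians. Points are spread up and down at random within a row. The activation machinery and the homing receptors have 4 filled points each to the right, and the B cell markers lie to the left.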

How the data were processed

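Each of 4 libraries came as a table of whole-number read counts per gene symbol, which the authors deposited without normalization. Per the submitters' processing notes, the tools were DESeq2 1.30.1, R 4.0.4 and Subread 2.0.1 with featureCounts, on build mm10. The aligner, annotation release, strand setting and treatment of multi-mapped reads were not given in the sources used here. Without strand, reads of antisense partners cannot be told apart.

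The analysis used edgeR 4.0.16 under R 4.3.3: filterByExpr (minimum count 10, minimum total 15), TMM scaling and the quasi-likelihood test with all 4 libraries and no covariate, adjusted by Benjamini-Hochberg over 12752 genes. CPM uses TMM-scaled totals of the kept genes, and RPKM also the union of exons in GENCODE M21 (GRCm38). Errors, given as SE, are the absolute log2 fold change divided by the square root of the quasi-likelihood F statistic. The code was also run on counts simulated from this fit's own means and dispersions, which gives no support to the calls made here. Alternatives were DESeq2 1.42.0, limma-voom (limma 3.58.1), other scalings, no filter, a replicate block and leaving out each library. An exact permutation test of 2 against 2 cannot go below p = 0.333 and was not run.

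The 10 chains, the 6 surrounding lists and the 9 marker lists were chosen with earlier results of these data known. Named from the lists were the genes called, up to 4 in each direction, and all filtered integrin chains. Other genes of the lists were singled out after their values were seen, for their known role. Of the homing receptors called, 1 is not reported here by name.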

Additional observations from a re-analysis of the deposited data

How the results depend on the processing

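Of all genes, 305 were called higher and 199 lower. DESeq2 called 860 higher and 783 lower, no low-count filter gave 737 and 682, the replicate block 488 and 401, and upper quartile factors 122 lower. When a library was left out the counts ranged from 0 to 1432 higher and from 0 to 1127 lower, with 0 without either KO library (1605 and 2161 genes at an unadjusted p under 0.05) and the highest without WT replicate 2. In those fits 1 group is a single library, assumed to vary like the other group. Other integrin chains called higher fell to 0 with upper quartile factors and with limma-voom, and ranged from 0 to 1 without a library. Activation machinery called higher was 7 without the filter, 11 with DESeq2 and from 0 to 12 without a library, and from 0 to 2 were lower there. Homing receptors called higher were 7 without the filter, 8 with DESeq2 and from 0 to 7 without a library. Those called lower were 1 without the filter, with DESeq2 and with the replicate block, and from 0 to 4 without a library. Ligands called higher were 1 without the filter and with DESeq2 and from 0 to 1 without a library, and those lower from 0 to 3. Surface partners ranged from 0 to 4 higher and from 0 to 3 lower without a library. For processing and trafficking, 1 was lower without the filter and with DESeq2, and from 0 to 1 higher without a library.

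The sign of the log2 fold change turned for Itgae without KO replicate 1 (-0.19) and for Itga4 without WT replicate 1 (0.12). Over the fits without 1 library, Itgae ranged from -0.19 to 1.10 and Itga4 from -0.42 to 0.12. Relative to the T cell markers, a scaling chosen after seeing the data and dependent on which markers are summed, it turned for Itgb1 (-0.22) and Itgb2 (-0.04). On that scale Itga6 was at 0.60, Itgb7 at 0.81, Itgb3 at 1.49, Itga4 at -0.67 and Itgav at -1.08. The other 6 chains had the same sign under every alternative run. The replicate numbers share no stated animal or batch, so the main fit used no pairing. Deviations of same-numbered libraries correlated at 0.04 across genes, a single correlation that cannot exclude a shared batch. With 2 libraries a group, small changes of single chains are below what these data can resolve. The causes of these shifts were not tested.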

Other observations

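Itgae was not the only gene of the lists for which the KO libraries lay far apart, and the following genes were chosen after their values were seen. The laminin receptor chain Itga3 stood at 13.7 and 3.73 CPM in KO replicates 1 and 2, against 4.03 and 5.21 CPM in WT libraries. Cxcr6, a chemokine receptor of tissue-resident and effector T cells, stood at 87.2 and 29.2 CPM in KO libraries and at 48.1 and 43.0 CPM in WT libraries. Ccr2 stood at 21.4 and 9.89 CPM in KO libraries and at 13.2 and 12.8 CPM in WT libraries. In each of these genes KO replicate 1 was above both WT libraries and KO replicate 2 below both, as for Itgae. Log2 fold changes of these 3 genes lay between 0.27 and 0.92, and none was called (edgeR adjusted p between 0.371 and 0.690).

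Some integrin genes are neighbours. On chromosome 7 the leukocyte alpha chains Itgam, Itgax and Itgad lie within 11055 and 3718 bases of the next, with Itgal 727501 bases away from Itgam. Itgal had 9993 and 10284 counts in KO libraries and 8138 and 7615 in WT libraries, while Itgax had 53 and 25 in KO and 31 and 32 in WT libraries. Itgad had at most 3 counts in a library.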
